A study of Mus musculus with 18 samples.

Results

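The 9 Ts1Cje mice of the series were divided by the signal of 1 probe, ILMN_1217284, for which the annotation of the array gives no gene. The members were thus chosen by a measured signal and not by a label. The 6 mice with a log2 signal above 8 are called high Ts1Cje, the other 3 are called low Ts1Cje, and the 9 euploid mice of the same litters, which took no part in the division, are shown beside them. The members are therefore 9 of the 18 mice of the series, with 2 high, 1 low and 3 euploid mice in each of 3 litters. All were newborn (P0) mice of the strain B6EiC3SnF1/J A/a, and the array measured RNA of the external granule cell layer dissected from the cerebellum of single mice. Ts1Cje mice carry in 3 copies the segment of Mmu16 from Sod1 to Znf295, and, as a result of the same translocation, lack 1 copy of a short distal piece of Mmu12. According to the methods of the study, carrier fathers were bred with wild-type mothers on a B6C3SnF1/Orl mixed background. This name differs from the strain given above. Carriers were identified by PCR for Neo. The source label of 2 euploid samples of litter 2 names the cerebellum and not the layer. Since each litter had a slide of its own, effects of litter and of slide cannot be told apart.

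The external granule cell layer is the sheet of dividing granule cell precursors at the surface of the newborn cerebellum. Several of the probes that differed between the 2 kinds of Ts1Cje mouse belong to genes of the CC chemokines. CC chemokines are small secreted proteins that guide migrating leukocytes through receptors on their surface: Ccl27a acts in the skin through Ccr10, and the Ccl21 genes draw T cells and dendritic cells into lymph nodes through Ccr7. In the mouse these genes stand in a cluster on proximal Mmu4 in which whole blocks, with Ccl19, Ccl21, Ccl27 and Il11ra genes, were copied during evolution, and the copies differ by few bases. Cntfr, the receptor subunit that binds ciliary neurotrophic factor, lies at the edge of the same cluster.

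ILMN_1217284 separated the mice by a wide margin. Its lowest, median and highest log2 signals in the 6 high Ts1Cje mice were 10.01, 10.22 and 11.30, against 5.81, 5.82 and 5.63 in the low Ts1Cje mice of litters 1, 2 and 3, the order in which values of the 3 low mice are given from here on. In the 9 euploid mice the lowest, median and highest values were 5.63, 5.78 and 6.06. No mouse lay between 6.06 and 10.01, and all 9 euploid mice lay with the low Ts1Cje mice. The threshold of 8 fell between a high mouse at 10.01 and a low mouse at 5.82. These values chose the mice and are given as a description, without a test. The highest value, 11.30, came from mouse 1 of litter 1. A probe for the same transcript, or for one that varies with it, had to follow the division, and what follows describes which of the other probes did.

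Over the other 46631 probes, the high and low Ts1Cje mice differed at few. With litter as a block, 8 probes were higher in high Ts1Cje mice at an adjusted p under 0.05 (limma with Benjamini-Hochberg adjustment), or 0.0172% of those tested, and 0 were lower. At an unadjusted p under 0.05, 1590 probes (3.41%) were higher and 921 (1.98%) were lower, and the median difference over all probes was -0.013 on the log2 scale. Counted by size alone, 10 probes (0.0214%) were at least 1 higher on the log2 scale with no overlap between the 6 high and the 3 low mice, and 0 (0%) were lower by that rule. Of the 8 probes called, 5 carried a gene name, and all 5 lie on Mmu4: Ccl27a, Ccl21b with 2 probes, Ccl21a and Anks6. They are 5 of the 1796 probes of Mmu4, or 0.278%. The 3 others belong to the 16712 probes for which the tables give no chromosome. In 7 of the 8 called probes, all 9 euploid mice lay on the low side of the midpoint between the means of both kinds of Ts1Cje mouse. The share of all probes tested with this pattern was not counted, so the 7 are a description only.

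**Figure D1:**
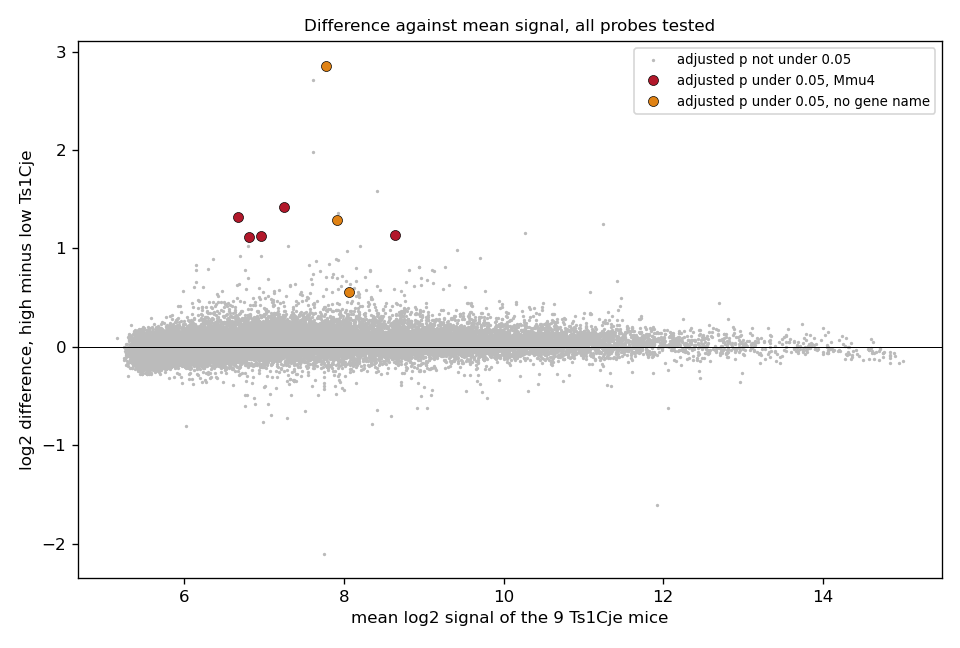
Difference between high and low Ts1Cje mice (log2 scale, vertical axis) against the mean log2 signal of the 9 Ts1Cje mice (horizontal axis), 1 point per probe over the 46631 probes tested. The 5 called probes of Mmu4 (red) and the 3 without a gene name (orange) all lie above 0, and most other probes form a band around 0.

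The 3 chemokine genes of Mmu4 rose, and were higher in every high Ts1Cje mouse than in any low one. Ccl27a had its lowest, median and highest log2 signals at 8.79, 8.94 and 9.44 in high Ts1Cje mice, against 7.94, 8.08 and 7.63 in low Ts1Cje mice and 7.50, 7.75 and 8.04 in euploid mice. The lowest high mouse stood clear of the highest low mouse, while the low and euploid mice shared 1 range. The difference between high and low Ts1Cje mice was 1.14 ± 0.10 (SE; adjusted p = 0.0055 in limma), a 2.21-fold signal, and it measured 1.37, 0.82 and 1.23 within litters 1, 2 and 3.

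Ccl21b was measured by 2 probes. On ILMN_2640842 the lowest, median and highest log2 signals were 7.42, 7.70 and 8.10 in high Ts1Cje mice, against 6.12, 6.18 and 6.61 in low Ts1Cje mice and 5.90, 6.12 and 6.36 in euploid mice. The groups of Ts1Cje mice did not overlap, and the low mouse of litter 3 was the highest of the 12 mice on the low side. The difference was 1.42 ± 0.13 (SE; adjusted p = 0.0057 in limma). The other probe, ILMN_2602139, gave 7.04, 7.29 and 7.80 in high Ts1Cje mice and 6.18, 6.09 and 6.36 in low Ts1Cje mice, a difference of 1.13 (adjusted p = 0.0092 in limma). On neither probe did a low Ts1Cje mouse reach a high one.

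Ccl21a, another member of the cluster, had its lowest, median and highest log2 signals at 6.94, 7.12 and 7.65 in high Ts1Cje mice, against 5.97, 5.99 and 6.26 in low Ts1Cje mice and 5.62, 6.04 and 6.32 in euploid mice. Again no low or euploid mouse reached a high one. The difference was 1.11 ± 0.12 (SE; adjusted p = 0.0110 in limma). For all 4 chemokine probes, the largest difference was found in litter 1. The medians of the arrays lie close to 6, so the Ccl21a and Ccl21b signals of low Ts1Cje and euploid mice are those of dim probes, and a detection p-value was not used here. When background was subtracted, the differences of the Ccl21 probes were 2.04 to 2.35 on the log2 scale and were not called (adjusted p = 0.25 to 0.38 in limma). The 4 probes of Il11ra2, which encodes a receptor chain for interleukin 11 and lies on the array between Ccl21b and Ccl21a, differed by -0.09, 0.0003, 0.24 and -0.01, and the brightest of them, ILMN_2619594, with a difference of 0.24, had an unadjusted p of 0.048 and an adjusted p of 0.92 in limma.

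RefSeq lists 10 genes named Ccl19, Ccl21, Ccl27 or Il11ra between Cntfr and Anks6, 2 of which are transcribed pseudogenes. The probes named here for Ccl27a, Ccl21b and Ccl21a may therefore bind the RNA of other copies as well, and which copy gave a signal is uncertain. The 250 bases before the annotated start are shown for 3 pairs of genes, 5′ to 3′ on the strand of the gene (RefSeq, GRCm38.p6). Capitals mark the longest run shared by both members of a pair. Where a gene has several such windows, those with the longest shared run were taken. These bases lie before the annotated start, so they do not show which RNA a probe binds, and probe sequences were not compared. The Ccl21b window, chr4:42172870-42173119 on the plus strand, shares 238 of its 250 bases as 1 run with the window of Cntfr, chr4:41695476-41695725 on the minus strand.
Ccl21b: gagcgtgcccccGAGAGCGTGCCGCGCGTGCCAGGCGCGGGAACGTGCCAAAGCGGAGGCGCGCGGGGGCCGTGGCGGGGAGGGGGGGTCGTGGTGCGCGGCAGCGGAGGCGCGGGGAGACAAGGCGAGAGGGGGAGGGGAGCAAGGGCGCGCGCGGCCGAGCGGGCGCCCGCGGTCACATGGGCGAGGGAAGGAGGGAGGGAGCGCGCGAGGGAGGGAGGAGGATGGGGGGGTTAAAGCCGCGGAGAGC
Cntfr: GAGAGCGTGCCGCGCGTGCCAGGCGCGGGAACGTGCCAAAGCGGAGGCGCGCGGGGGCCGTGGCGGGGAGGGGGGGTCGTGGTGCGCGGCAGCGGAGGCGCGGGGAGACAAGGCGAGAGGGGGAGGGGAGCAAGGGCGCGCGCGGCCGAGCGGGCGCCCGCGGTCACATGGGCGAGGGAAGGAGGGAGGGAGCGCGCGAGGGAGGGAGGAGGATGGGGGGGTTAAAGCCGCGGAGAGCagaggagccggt
The annotated start of Ccl21b thus follows a copy of the sequence that precedes a start of Cntfr. Ccl21a (chr4:42773992-42774241, minus strand) and Ccl21d (chr4:41903363-41903612, plus strand) share a run of 140 bases, and, shifted by 1 base, are alike at 248 of 249 positions.
Ccl21a: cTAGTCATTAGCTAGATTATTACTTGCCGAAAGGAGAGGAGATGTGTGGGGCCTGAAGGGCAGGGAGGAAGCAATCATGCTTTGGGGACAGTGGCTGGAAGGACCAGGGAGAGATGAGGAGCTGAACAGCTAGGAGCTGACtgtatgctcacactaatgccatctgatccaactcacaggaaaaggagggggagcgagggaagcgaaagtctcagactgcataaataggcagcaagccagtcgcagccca
Ccl21d: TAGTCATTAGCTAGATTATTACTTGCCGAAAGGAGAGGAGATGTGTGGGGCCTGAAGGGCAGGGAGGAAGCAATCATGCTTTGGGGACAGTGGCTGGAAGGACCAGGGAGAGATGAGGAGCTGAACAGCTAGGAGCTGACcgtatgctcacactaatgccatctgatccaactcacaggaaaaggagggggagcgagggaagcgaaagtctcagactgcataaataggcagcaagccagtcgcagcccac
Ccl27a (chr4:41770213-41770462, minus strand) and Ccl27b (chr4:42655001-42655250, plus strand) share a run of 128 bases.
Ccl27a: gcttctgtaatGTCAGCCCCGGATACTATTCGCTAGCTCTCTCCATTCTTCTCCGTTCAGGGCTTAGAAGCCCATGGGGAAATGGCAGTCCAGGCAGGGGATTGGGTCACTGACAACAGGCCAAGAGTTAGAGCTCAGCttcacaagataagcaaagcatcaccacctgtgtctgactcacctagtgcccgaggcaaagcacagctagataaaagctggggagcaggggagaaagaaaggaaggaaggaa
Ccl27b: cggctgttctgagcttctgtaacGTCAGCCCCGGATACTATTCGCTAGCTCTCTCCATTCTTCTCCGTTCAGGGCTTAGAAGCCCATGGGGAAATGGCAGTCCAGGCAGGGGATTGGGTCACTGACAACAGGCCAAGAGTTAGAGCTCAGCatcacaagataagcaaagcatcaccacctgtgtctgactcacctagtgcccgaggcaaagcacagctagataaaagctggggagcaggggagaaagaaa
Windows were found for 4 of the 5 genes Ccl27a, Ccl21b, Ccl21a, Anks6 and Cntfr. The Ccl21b and Cntfr windows hold 78.0% and 77.2% of G and C, and the other 4 windows hold 52.0% to 53.2%. The E-box letters CANNTG, searched on both strands, occur in all 6 windows and in 66.2% of the 32851 RefSeq windows of this length, and TATAAA occurs in 0 of the 6 and in 12.4% of all.

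Cntfr showed a smaller difference, which was not called. Its lowest, median and highest log2 signals were 6.90, 7.12 and 7.28 in high Ts1Cje mice, against 6.61, 6.52 and 6.69 in low Ts1Cje mice and 6.55, 6.71 and 6.82 in euploid mice. The high Ts1Cje mice lay above all the others, by a small margin. The difference of 0.50 ± 0.07 (SE) had an adjusted p of 0.090 in limma and measured 0.45, 0.50 and 0.56 in the 3 litters. At any size, the high mice lay above all low Ts1Cje mice in 300 (0.643%) and below them in 711 of the 46631 probes tested. They lay above all low Ts1Cje and euploid mice in 17 (0.0365%) and below all of these in 7. The 3 genes on the array between Cntfr and Ccl27a did not follow: Rpp25l differed by -0.02, Dctn3 by 0.02, and Galt, which encodes an enzyme of galactose metabolism, by 0.02 and -0.01.

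**Figure D2:**
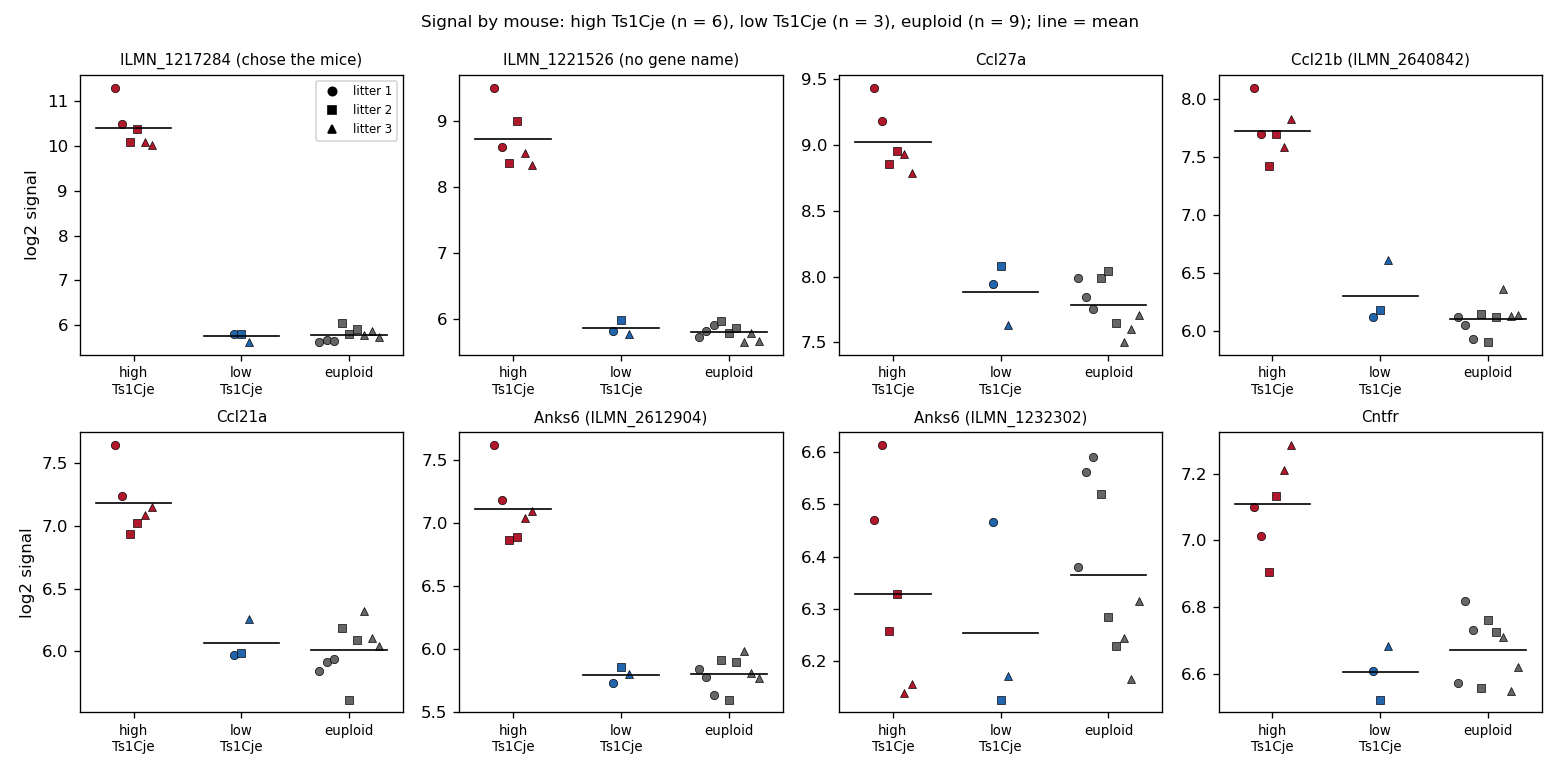
Log2 signal (vertical axis) of 8 probes in single mice, with high Ts1Cje mice on the left, low Ts1Cje mice in the middle and euploid mice on the right; the symbol gives the litter and the line the mean. The 6 high Ts1Cje mice stand above all 12 others on every probe shown except ILMN_1232302, a second probe of Anks6, on which the groups overlap.

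Anks6 encodes an ankyrin repeat protein of the primary cilium that binds Nek8 and Invs and whose loss causes cystic kidneys. On ILMN_2612904 its lowest, median and highest log2 signals were 6.87, 7.07 and 7.62 in high Ts1Cje mice, against 5.73, 5.86 and 5.81 in low Ts1Cje mice and 5.60, 5.81 and 5.99 in euploid mice. The high mice stood apart on this probe and the low Ts1Cje mice lay within the euploid range. The difference was 1.32 ± 0.12 (SE; adjusted p = 0.0055 in limma) and measured 1.67, 1.02 and 1.26 in the 3 litters. The other 2 probes of Anks6 did not show it. ILMN_1231286 ranged from 5.74 to 5.96 in high Ts1Cje mice and measured 5.72, 5.79 and 5.85 in low Ts1Cje mice, a difference of 0.05 ± 0.07 (SE). ILMN_1232302 ranged from 6.14 to 6.61 in high Ts1Cje mice and measured 6.47, 6.13 and 6.17 in low Ts1Cje mice, a difference of 0.07 ± 0.06 (SE). The probes of this gene disagree, and which transcripts each of them detects was not analysed here.

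Between Ccl21a and Anks6 the chromosome did not move as a whole. The array holds 99 probes for 64 genes strictly between them, of which 0 were called and 6 (6.06%) had an unadjusted p under 0.05. The 6 were 1 probe each of Tstd2 (0.33), Aldh1b1 (0.33), Trmo (0.30), Dnajb5 (0.13), Rgp1 (-0.15) and Olfr155 (-0.16). The differences of the 99 probes ran from -0.20 to 0.33 with a median of -0.02, close to the median of all probes. From Cntfr to Anks6 there were 115 probes for 73 genes, with 5 called. Of the 115, 13 had an unadjusted p under 0.05, against 5.38% of all probes tested. Of the 1681 probes elsewhere on Mmu4, 0 were called, and their median difference was -0.01. Over the other chromosomes 0 probes were called. On Mmu1 to Mmu19 and the X chromosome the share of probes at an unadjusted p under 0.05 ran from 4.24% on Mmu17 to 8.64% on Mmu12, with 7.63% on Mmu4, and on the Y chromosome it was 4 of 22 probes (18.2%). Whether the high and low mice carried different alleles of Mmu4 was not tested.

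**Figure D3:**
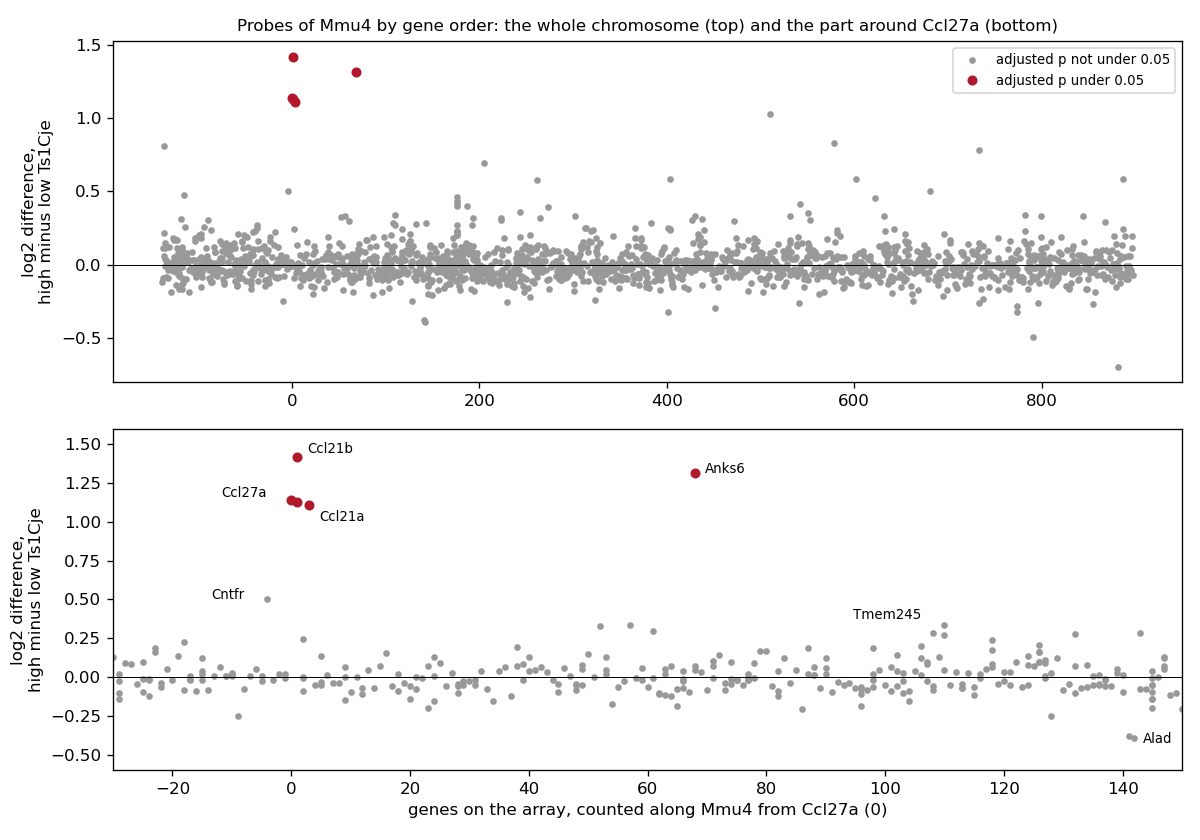
Difference between high and low Ts1Cje mice (log2 scale, vertical axis) for the probes of Mmu4 in the order of their genes, counted from Ccl27a at 0 (horizontal axis), over the whole chromosome (top) and around the cluster (bottom). The called probes (red) belong to Ccl27a, Ccl21b and Ccl21a, which lie within 3 genes of each other on the array, and to Anks6, with 64 genes and no called probe between Ccl21a and Anks6.

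In the comparison with euploid mice, 2 further genes of Mmu4 stood out, which were chosen after their values were seen. Tmem245, which encodes a membrane protein, lies 108 genes on the array beyond Ccl27a. Its lowest, median and highest log2 signals were 6.09, 6.19 and 6.47 in high Ts1Cje mice, against 5.99, 5.93 and 5.87 in low Ts1Cje mice and 5.85, 5.95 and 6.01 in euploid mice. The high mice again lay above all others, with 6.09 and 6.01 as the nearest values. High Ts1Cje mice exceeded euploid mice by 0.28 ± 0.04 (SE; adjusted p = 0.0052 in limma), and low Ts1Cje mice differed from euploid mice by -0.01 ± 0.05 (SE). Between high and low Ts1Cje mice the difference was 0.29 (adjusted p = 0.59 in limma).

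Alad, an enzyme of haem synthesis, lies 142 genes beyond Ccl27a and was lower in high Ts1Cje mice than in euploid mice. Its lowest, median and highest log2 signals were 10.40, 11.32 and 11.45 in high Ts1Cje mice, against 11.18, 11.76 and 11.74 in low Ts1Cje mice and 11.61, 11.81 and 11.98 in euploid mice. High Ts1Cje mice lay below every euploid mouse, and overlapped the low Ts1Cje mouse of litter 1. Against euploid mice the log2 difference was -0.65 ± 0.13 in high Ts1Cje mice (SE; adjusted p = 0.038 in limma) and -0.26 ± 0.16 in low Ts1Cje mice (SE; unadjusted p = 0.12). The difference between high and low Ts1Cje mice was -0.39 (adjusted p = 0.92 in limma).

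Lpar1, a receptor for lysophosphatidic acid on the same chromosome, did not divide the Ts1Cje mice. Its lowest, median and highest log2 signals were 7.34, 7.51 and 8.08 in high Ts1Cje mice, against 7.55, 7.52 and 7.72 in low Ts1Cje mice and 7.10, 7.36 and 7.53 in euploid mice. High and low Ts1Cje mice overlapped, and their difference was 0.05 ± 0.08 (SE; adjusted p = 0.96 in limma). Neither kind of Ts1Cje mouse was called against euploid mice, with 0.34 for high and 0.29 for low Ts1Cje mice.

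Of the probes without a gene name, ILMN_1221526 followed the division most closely. Its lowest, median and highest log2 signals were 8.34, 8.57 and 9.50 in high Ts1Cje mice, against 5.83, 5.98 and 5.78 in low Ts1Cje mice and 5.66, 5.79 and 5.97 in euploid mice. The log2 difference was 2.86 ± 0.20 (SE; adjusted p = 0.0008 in limma). The signals of low Ts1Cje and euploid mice are those of a dim probe, and with background subtracted the difference was 4.50 and not called (adjusted p = 0.10 in limma). ILMN_2775767 had 8.11, 8.36 and 8.57 in high Ts1Cje mice, against 7.11, 7.16 and 6.90 in low Ts1Cje mice and 6.76, 7.05 and 7.14 in euploid mice, a difference of 1.29 (adjusted p = 0.0008 in limma). On both probes the 6 high mice stood apart from the other 12.

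ILMN_2437422, the last called probe, falls outside the rule for naming and was chosen after its values were seen. Its log2 signals ranged from 7.999 to 8.657 in high Ts1Cje mice, against 8.12, 7.45 and 7.52 in low Ts1Cje mice and 7.01 to 8.37 in euploid mice. The mice overlapped across litters, and the difference of 0.55 (adjusted p = 0.0104 in limma) appeared within litters. Without the block it was not called.

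The remaining 3 probes of that size were at least 1 higher without overlap and were not called. Col2a1, a fibrillar collagen gene of Mmu15, measured 8.20, 8.49 and 8.98 in high Ts1Cje mice, against 7.10, 7.49 and 7.98 in low Ts1Cje mice and 7.75, 8.33 and 9.08 in euploid mice. Here the euploid mice covered the levels of the high mice (difference between high and low Ts1Cje mice 1.02; adjusted p = 0.53 in limma). Klc1, a kinesin light chain gene of Mmu12, differed by 1.24 (adjusted p = 0.59 in limma), with 1 low mouse at 9.24 and the other 2 at 11.06 and 10.95. Its euploid mice ran from 9.35 to 11.94, with 6 of 9 on the high side. The probe ILMN_2513657 had 7.21, 8.24 and 10.57 in high Ts1Cje mice, against 5.90, 5.75 and 5.78 in low Ts1Cje mice (difference 2.71; adjusted p = 0.12 in limma), and 3 euploid mice were also on the high side.

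Likeness to ILMN_1217284 was described by the correlation over the 9 Ts1Cje mice after litter means were removed. The 10 probes closest to it were ILMN_1221526 (r = 0.994), Fxr1 (0.994), Elmo1 (-0.992), Huwe1 (0.991), Dpp6 (0.988), Anks6 (0.987), Kmt5b (0.987), Zfp182 (0.986), Ccl27a (0.985) and ILMN_2437422 (0.985). With 9 points that share 3 litters and 46631 probes to choose from, these values are a description only, and several of these genes differed little between the mice. Fxr1 differed by 0.22 and Zfp182 by 0.08 on the log2 scale, and in 5 and 3 of the 9 euploid mice they lay on the side of the high mice. Of these 10, Anks6, Ccl27a and ILMN_1221526 differed by over 1. Outside the 10, so did Ccl21b (r = 0.983 and 0.982 on its probes), Ccl21a (0.982) and ILMN_2775767 (0.982). Because ILMN_1217284 made the division, a high correlation with it is no separate evidence beside the difference.

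Set against the euploid mice, the 2 kinds of Ts1Cje mouse were unequal in number, which changes what a test can call, and both comparisons share the 9 euploid mice. In high Ts1Cje mice 87 probes (0.187%) were higher at an adjusted p under 0.05 in limma, and 5 were lower. Of the 87, 37 belong to three-copy genes of Mmu16 and 7 lie on Mmu4, including all 5 named probes above, Cntfr and Tmem245. In low Ts1Cje mice 7 probes (0.015%) were higher and 3 were lower, with 3 of the 7 from three-copy genes and 0 from Mmu4. The difference from euploid mice at Ccl27a was 1.24 ± 0.08 in high and 0.10 ± 0.10 in low Ts1Cje mice (SE). At Ccl21b (ILMN_2640842) it was 1.62 ± 0.09 in high and 0.20 ± 0.11 in low Ts1Cje mice. At Anks6 it was 1.31 ± 0.09 in high and -0.01 ± 0.11 in low Ts1Cje mice, and at Cntfr 0.43 ± 0.06 (adjusted p = 0.0011 in limma) in high and -0.07 ± 0.07 in low Ts1Cje mice. At these 4 genes the low Ts1Cje mice differed from euploid mice by less than 2 SE.

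On the lists for the genes of the cluster and for Anks6, no gene outside the cluster was called. Of 15 measured genes on a list of CC chemokines, related chemokines and their receptors, 3 were called, all higher, namely Ccl27a, Ccl21a and Ccl21b, and the median difference of the list was -0.01, against -0.013 over all probes. Ccr7, the receptor for Ccl21, differed by -0.05, and Ccr10, the receptor for Ccl27, by 0.03. Both receptors were dim, with mean log2 signals of 6.03 and 5.44 in high Ts1Cje mice and 6.07 and 5.41 in low Ts1Cje mice. On the list for the Cntfr pathway, 0 of 16 measured genes were called and 3 were higher at an unadjusted p under 0.05, against 3.41% of all probes: Cntfr and Il11ra2, which both belong to the Mmu4 cluster, and Socs3, a feedback inhibitor of cytokine signalling that differed by 0.22. Il6st, the shared signalling subunit, differed by 0.52 ± 0.30 (SE), Lifr by 0.02 and Stat3, which carries the signal to the nucleus, by -0.17. On the list of Anks6 and ciliary partners, represented by the brightest probe of each gene, 0 of 9 were called in either direction. Anks6 entered this list by ILMN_1232302 and not by its called probe ILMN_2612904. Nek8 differed by -0.11 and Invs by -0.003.

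Three-copy genes set both kinds of Ts1Cje mouse apart from euploid mice. The mean log2 signal of 64 measured three-copy genes was 7.69 ± 0.04 in high Ts1Cje mice (SD, n = 6), 7.67 ± 0.03 in low Ts1Cje mice (SD, n = 3) and 7.43 ± 0.04 in euploid mice (SD, n = 9). All 9 Ts1Cje mice lay above all 9 euploid mice, and high and low mice overlapped. The difference between high and low Ts1Cje mice was 0.01, with p = 0.52 in a two-sided exact permutation test over the 27 choices of 1 low mouse per litter and p = 0.68 over the 84 choices of 3 mice. The smallest p that these tests allow is 0.037 and 0.012. Over the 27 of these genes among the 11000 brightest probes the means were 9.86 in high, 9.81 in low and 9.39 in euploid mice (p = 0.33 and 0.40 for high against low, exact permutation tests). Of the three-copy genes, 0 were called between high and low mice and 2 of 64 were higher at an unadjusted p under 0.05, against 3.41% of all probes: Dyrk1a (0.24), a protein kinase, and Kcnj6 (0.34), a potassium channel. Sp4, a transcription factor gene of the deleted piece of Mmu12, had mean log2 signals of 7.21 in high and 7.19 in low Ts1Cje mice, against 7.90 in euploid mice.

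The sexes were not spread evenly. Xist, the RNA of the inactive X chromosome, was on the high side in 1 of 6 high Ts1Cje mice, 2 of 3 low Ts1Cje mice and 4 of 9 euploid mice. The Y-linked gene Eif2s3y was on the high side in 5 of 6 high Ts1Cje mice, 1 of 3 low Ts1Cje mice and 4 of 9 euploid mice, and 1 euploid mouse of litter 1 was low for both. With sex as a further term 11 probes were called, of which 7 were among the 8 above. Mouse 1 of litter 1, the only high mouse with a high Xist signal, also had the highest signal of ILMN_1217284.

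**Figure D4:**
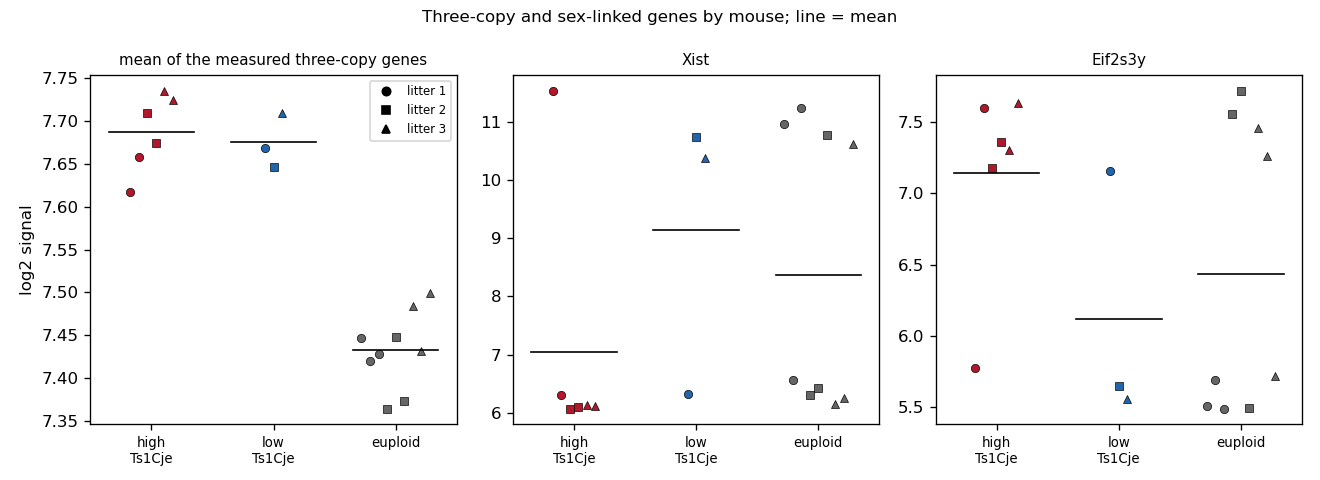
Mean log2 signal of the measured three-copy genes (left), log2 signal of Xist (middle) and of Eif2s3y (right) in single mice, with the symbol for the litter and the line for the mean. All 9 Ts1Cje mice lie above the 9 euploid mice for the three-copy genes, and 5 of 6 high Ts1Cje mice have high Eif2s3y, against 1 of 3 low Ts1Cje mice.

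Cell type markers gave no called gene in any list. Zic1 and Pax6, transcription factors of granule cell precursors, were bright, with mean log2 signals of 12.91 and 12.07 in high Ts1Cje mice and 12.62 and 11.94 in low Ts1Cje mice. Atoh1, which defines these precursors, was dim, at 5.65 in high and 5.74 in low Ts1Cje mice, below the median of the arrays. Of 15 measured precursor markers 9 had a positive difference, with a median of 0.02, and of 10 measured microglial markers 1 did, with a median of -0.17. Over all cell type lists the median ran from this value to 0.06 in postmitotic granule cells, against -0.013 over all probes. The share of positive differences over all probes was not counted, and markers of 1 cell type are not separate observations. Otx2, placed here on the list of choroid plexus markers, differed by 1.98 ± 0.47 (SE; adjusted p = 0.59 in limma). Which cells gave its signal was not tested. Its mean log2 signal was 8.27 in high and 6.29 in low Ts1Cje mice, and 8.01 in euploid mice. Of the other measured choroid plexus markers, Ttr differed by 0.98, Sostdc1 by 0.20, Aqp1 by 0.03, Clic6 by 0.02, Kl by -0.005 and Folr1 by -0.008. The summed linear signal of the 7 measured choroid plexus markers ranged from 643 to 4437 in high Ts1Cje mice, 520 to 706 in low Ts1Cje mice and 553 to 13258 in euploid mice. The part of choroid plexus or of any other cell type in the division was not tested. In such a dissected sample, more cells of a type and more RNA per cell cannot be told apart.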

How the data were processed

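RNA of the external granule cell layer of 18 newborn mice was hybridized to Illumina bead arrays, 1 per mouse. Per the labels and the methods, the authors labelled 50 ng of RNA, averaged the beads of each probe and normalized to the mean signals, and they deposited log2 values for 46632 probes. The base of the logarithm was taken from the range of the values. The build of the array's annotation is not given in the sources used here. All arrays had a mean of 6.69, correlations ran from 0.981 to 0.995, and 0 pairs were identical. The number of arrays limits the precision.

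Genotype came from the labels and litter from the labels and the methods, while the division into high and low Ts1Cje mice was computed from ILMN_1217284, which was left out of all tests. The deposited values were tested with limma 3.58.1 (lmFit and eBayes) in R 4.3.3, two-sided, with litter as a fixed block and Benjamini-Hochberg adjustment over 46631 probes at 0.05. Comparisons with euploid mice came from 1 fit of 3 groups over 18 arrays. The fit was tested on simulated data. The limma p-values set a difference against the spread left between these mice after the litter block, moderated over all probes. Each litter has 1 low mouse, so the spread of low mice within a litter was not measured. Mice were counted on a side of the midpoint of both Ts1Cje means, or of the range for Xist and Eif2s3y. Symbols were updated through Entrez identifiers for 29921 of 29976 probes with 1 symbol, and 10 probes with several symbols and the 16646 with none stayed unnamed. Chromosomes and gene order come from RefSeq on GRCm38.p6. A gene on a list is represented by its brightest probe.

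The probes named are that of the division, all of Ccl27a, Ccl21b, Anks6, Cntfr and Lpar1, called probes with a gene and up to 2 without, called genes and smallest p-values of lists, and the 10 most like ILMN_1217284. Members and lists were chosen with earlier results of these data known, so the p-values are no independent evidence. Alternatives covered normalization, background, dim probes, block, sex, variance model, the methods' t-test and omission of mice or litters.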

Additional observations from a re-analysis of the deposited data

Results flagged for a closer look

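The value of 1 mouse stood far from the others of its group. Mouse 1 of litter 1 had a log2 signal of 11.30 on ILMN_1217284, against 10.01 to 10.48 in the other 5 high Ts1Cje mice, and the gap was 0.633 of the whole range. This mouse also had the highest signal of Ccl27a, Ccl21b, Ccl21a, Anks6 (ILMN_2612904) and ILMN_1221526, and the lowest of Alad at 10.40. On ILMN_2775767 it had 8.49, below mouse 2 of litter 1 at 8.57. On Cntfr it had 7.10, below mouse 6 of litter 3 at 7.28. Without mouse 1 of litter 1, 9 probes were called, 8 of them the same. Of 28 groups examined 1 was flagged, and among so many groups chance can flag 1. The signal of ILMN_1217284 chose the mice, so the flag is a description and not a test.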

How the results depend on the processing

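The count of 8 probes called between high and low Ts1Cje mice was 8 with scaling to the median and with the 20000 brightest probes, 7 with litter as a random block and 11 with sex as a term. It was 3 under quantile normalization (all 3 among the 8) and 3 among the 11000 brightest probes (2 of them among the 8). Without the litter block it was 4, and with eBayes using trend and robust it was 13. It was 0 when percentile 5 was subtracted as background (1769 at an unadjusted p under 0.05). With the methods' t-test it was also 0 (2128 at an unadjusted p under 0.05). Leaving out each mouse in turn gave 6 to 19, with 19 without the low mouse of litter 1, 12 without that of litter 2, and 13 without mouse 4 of the high mice. Without litter 1, 2 or 3 the count was 16, 17 or 4, of which 7, 6 or 3 were among the 8. With background subtracted, Ccl21b (ILMN_2640842) differed by 2.35, Ccl21a by 2.22, Anks6 by 2.55 and Ccl27a by 1.32, with adjusted p-values of 0.38, 0.32, 0.12 and 0.28 in limma. Over all alternatives the 8 called probes kept the call in 131 cases and lost it in 40, 12 of them ILMN_2437422, and Cntfr gained it in 1 (adjusted p = 0.045 in limma with trend and robust).

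Directions reversed only for values near 0. Lpar1 was -0.0205 under quantile normalization, -0.0349 with sex as a term, -0.0752 without litter 3 and -0.0752 to 0.133 when single mice were left out. Anks6 on ILMN_1231286 was -0.00708 without litter 1, -1.1e-16 with background subtracted and -0.00708 to 0.0964 when single mice were left out. The difference of the three-copy genes was -0.00787 under quantile normalization and -0.00272 to 0.0289 when single mice were left out, the lowest without the low mouse of litter 2. Probes that differed without overlap numbered 21 at a difference of at least 0.5, 2 at a difference of at least 2, and 5 among the 11000 brightest.

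High Ts1Cje against euploid mice gave 92 probes in either direction, 49 without the litter block, 141 without the 2 samples labelled cerebellum and 30 without litter 3. Low Ts1Cje against euploid mice gave 10, and 26 under quantile normalization, 4 with scaling to the median, 3 with background subtracted, 2 without the litter block, 5 without the 2 samples labelled cerebellum, and 0, 2 and 0 without litters 1, 2 and 3. The cause of these changes was not tested. The number of low mice, 3, limits the comparisons that use them, and dim probes lie near the background of the arrays.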
